A study of Mus musculus with 16 samples.

Results

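Single-strand break sequencing (SSB-seq) of mouse embryonic stem cells gave 60228 separate break regions on chromosomes 1 to 19 once the peaks of the 4 deposited lists were merged wherever they shared at least 1 bp. The regions described here are the 14978 (24.9%) that held a peak of the vehicle-treated Tdg knockout list (KO DMSO) and of none of the other 3 lists, each of them a single peak. They made up 43% of the 34858 regions of that list and covered 9.45 Mb. They were chosen by which lists the authors' peak caller put a peak in, so the peak values given below describe them and test nothing.

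The cells, of strain C57BL/6JRj, were cultured in 2i medium with LIF, and a Tdg minigene was removable by 4-OHT. Wild-type (WT) and knockout (KO) cells received DMSO or 5 nM talazoparib, a PARP inhibitor, for 24 h, and each of the 4 conditions had 3 libraries of pulled-down DNA (IP) and 1 of input DNA. How long DMSO was given, whether wild-type cells also received 4-OHT and how many clones were used are not stated in the labels. These name 2 flow cells for each genotype, none shared between genotypes, so genotype and flow cell cannot be told apart in any comparison of WT with KO lists; the KO DMSO and KO talazoparib libraries shared theirs.

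A single-strand break interrupts 1 strand of the DNA, and such breaks arise as intermediates of base excision repair, at DNA topoisomerases and during replication. TDG, thymine DNA glycosylase, cuts out thymine mispaired with guanine and the oxidised forms of 5-methylcytosine that TET enzymes make, and the gap it starts is then closed by the later enzymes of base excision repair. In SSB-seq, E. coli DNA polymerase I extends nicks with digoxigenin-labelled nucleotides, and an antibody recovers the labelled fragments, so a peak is a place where labelled DNA was recovered more often than input DNA.

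The sequences below, from the mm10 build and read from the plus strand, show the range of DNA within these regions. Each is the middle of its region, of up to 250 bases, shortened where it would run into an annotated UTR. The first 2 come from regions among those with the most IP tags per bp, the next from the region with the most CpG, the following 2 from regions without CpG, and the last 3 from regions that cover the start of a listed gene; the third of those, Dazl, was picked after its values had been seen. The centres of these 3 regions lay 289, 5 and 185 bp downstream of the nearest annotated start, so the runs from Wnt7b and Dazl lie inside the gene. Capitals mark CpG. The Polb run held the cAMP response element TGACGTCA.
near Gm25352, chr3:5860460-5860709: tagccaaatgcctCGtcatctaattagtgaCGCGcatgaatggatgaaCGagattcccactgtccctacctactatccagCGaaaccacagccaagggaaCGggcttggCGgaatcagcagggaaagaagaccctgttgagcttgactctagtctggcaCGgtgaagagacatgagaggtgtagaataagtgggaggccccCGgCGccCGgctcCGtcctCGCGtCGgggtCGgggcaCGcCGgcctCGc
Jarid2 intron, chr13:44869772-44870021: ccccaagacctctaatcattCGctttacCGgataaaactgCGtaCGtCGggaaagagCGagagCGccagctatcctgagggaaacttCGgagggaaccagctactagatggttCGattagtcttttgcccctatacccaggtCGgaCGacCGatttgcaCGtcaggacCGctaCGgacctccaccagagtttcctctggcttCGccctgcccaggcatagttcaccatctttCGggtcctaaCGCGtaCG
Rufy3 coding exon, chr5:88565149-88565385: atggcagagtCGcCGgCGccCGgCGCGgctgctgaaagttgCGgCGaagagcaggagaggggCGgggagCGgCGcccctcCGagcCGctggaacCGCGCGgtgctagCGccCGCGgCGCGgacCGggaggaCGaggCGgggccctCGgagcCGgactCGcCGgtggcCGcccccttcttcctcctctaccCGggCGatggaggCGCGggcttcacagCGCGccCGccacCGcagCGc
near Snord12, chr2:167065827-167066076: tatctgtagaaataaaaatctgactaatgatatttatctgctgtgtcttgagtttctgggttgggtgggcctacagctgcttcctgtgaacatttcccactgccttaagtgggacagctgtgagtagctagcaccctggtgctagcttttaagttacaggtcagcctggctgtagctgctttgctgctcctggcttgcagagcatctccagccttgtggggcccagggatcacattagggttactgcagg
Mroh8 intron, chr2:157248334-157248583: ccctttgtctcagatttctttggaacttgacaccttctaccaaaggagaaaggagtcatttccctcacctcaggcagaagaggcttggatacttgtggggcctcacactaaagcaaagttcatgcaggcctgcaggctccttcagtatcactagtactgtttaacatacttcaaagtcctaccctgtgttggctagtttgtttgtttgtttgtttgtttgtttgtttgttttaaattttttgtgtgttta
Wnt7b start region, chr15:85582059-85582275: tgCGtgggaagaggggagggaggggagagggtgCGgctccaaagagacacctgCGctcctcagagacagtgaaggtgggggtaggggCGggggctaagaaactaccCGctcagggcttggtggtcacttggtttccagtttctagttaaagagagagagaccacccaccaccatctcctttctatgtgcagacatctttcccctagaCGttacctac
Polb start region, chr8:22653436-22653554: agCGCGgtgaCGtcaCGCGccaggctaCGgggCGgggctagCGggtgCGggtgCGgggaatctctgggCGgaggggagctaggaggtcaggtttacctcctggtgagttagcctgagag
Dazl start region, chr17:50293289-50293409: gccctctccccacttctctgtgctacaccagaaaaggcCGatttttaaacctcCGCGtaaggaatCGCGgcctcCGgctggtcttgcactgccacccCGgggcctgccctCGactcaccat

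The KO DMSO list was the longest of the 4, with 35020 peaks on chromosomes 1 to 19 against 28243 for WT DMSO, 23559 for KO talazoparib and 15343 for WT talazoparib. Its IP libraries together held 69.2 M tags and its input library 24.8 M, against 66.4 to 87.0 M and 24.5 to 38.1 M over all lists. The share of a list's regions found in no other list followed the same order as list length: 43% for KO DMSO (Wilson 95% interval 42.4 to 43.5), 38.8% for WT DMSO, 30.6% for KO talazoparib and 28.4% for WT talazoparib. When the 15343 best-scoring peaks of each list were merged instead, 4305 regions were only in KO DMSO, which was 28.2% of that list. It was 28.5% for WT DMSO, 28.0% for KO talazoparib and 38.0% for WT talazoparib. For WT talazoparib that number is the whole list, weakest peaks included, while the other lists lost their weakest. Each list pools the 3 IP libraries of its condition, with 1 value per peak, so the spread between cultures is unknown; intervals cover counting error only, and neighbouring regions are not independent.

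The regions only in KO DMSO were mostly short and low. Their normalized tag count, IP tags per 10000000, had a median of 4.63 and ran from 2.82 to 356.9, whereas KO DMSO peaks shared with another list had a median of 11.6. In tags as sequenced, the median was 32.0 IP tags and 1.5 input tags, against 80.2 and 5 at shared peaks. The median length was 500 bp against 940 bp, and 58.8% were exactly 500 bp long. IP density, tags per bp as a multiple of the mean over sequenced bases, had a median of 2.14 and was at least 4 in 1.61% of them, against 3.07 and 28.1% at shared peaks. The authors' fold of IP over input ran the other way, with medians of 6.74 and 6.06. That fold divides by few tags here: 75.02% of the regions had fewer than 3 input tags, and 11.8% stood at 0.5, the lowest value in the list, beside 24.9% and 2.20% of shared peaks. By the authors' peak score, the median region stood at the 32.2 percentile of its list, and the median shared peak at the 65.8 percentile.

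**Figure D1:**
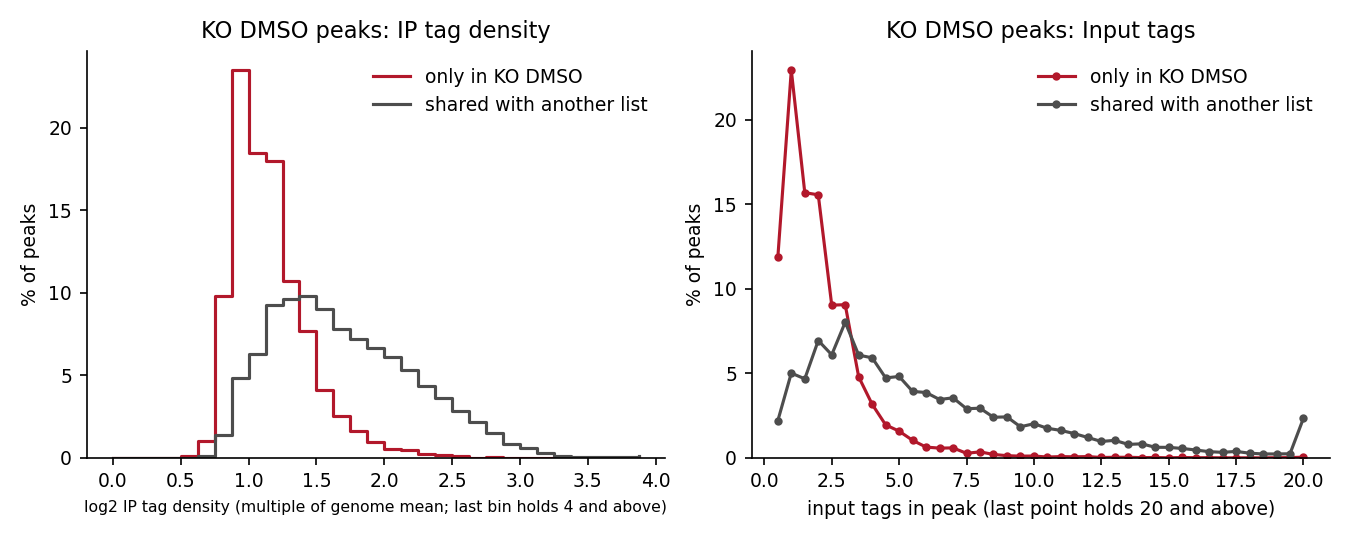
KO DMSO peaks by IP tag density (left, log2 of the multiple of the genome mean) and by input tags in the peak (right), as percentages of the 14978 peaks only in KO DMSO (red) and of the 20042 shared with another list (grey). The red distributions sit lower on both axes, with median densities of 2.14 and 3.07 and median input tags of 1.5 and 5.

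Low density and absence from other lists went together through the whole list. With all KO DMSO peaks ranked by IP density and cut into 4 bins of 8755, 77.4% of the lowest bin were in no other list, then 57.4%, 29.5% and, in the highest bin, 6.74%. At the edge of the rule the values met: 127 regions lay within 50 bp of another list's peak, 4 of them touching it without a shared base, with a median of 5.21 normalized tags and density of 2.28, and 180 peaks shared 1 to 50 bp with one, with medians of 4.99 and 2.26.

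Many of these regions had a peak of another condition nearby. The median gap to the nearest peak of any other list was 4951.5 bp, and 8.43% of regions had one within 500 bp, 16.6% within 1 kb, 50.3% within 5 kb and 92.5% within 50 kb. The share within 5 kb was 26.9% when peaks of every list had to have a fold of at least 6. Measured list by list, the median gap was 8629 bp to WT DMSO peaks, 10832 bp to KO talazoparib peaks and 18484 bp to WT talazoparib peaks, which is also the order of those lists by length. Regions only in WT DMSO had another list's peak within 5 kb in 53.0% of cases. Among the regions only in KO DMSO themselves, 20.3% had another within 5 kb, and the median gap to the next was 18487 bp.

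By the GENCODE annotation, the centres of the regions only in KO DMSO lay mainly in introns (42.0%) and between genes (30.6%). Promoters, the stretch from 1 kb before an annotated start to 100 bp after it, held 1837 of them, or 12.3% (Wilson 95% interval 11.7 to 12.8), against 3.73% of genome bases. This share depended on the settings beyond its counting interval: it was 20.8% with equal numbers of best-scoring peaks, 20.1% with a fold of at least 6 in all lists, 19.9% with at least 3 input tags and 19.2% with a window of 1 kb on either side of the start. Introns held about their share of bases (40.2% of the genome), intergenic DNA less (49.0% of the genome), coding exons 3.64% against 1.01%, and transcription ends 7.38% against 3.88%. Shared KO DMSO regions lay in promoters in 43.0% of cases, a difference of −30.7 percentage points (Newcombe 95% interval −31.6 to −29.8). Against regions only in WT DMSO, of which 9.73% were in promoters, the difference was 2.54 points (1.77 to 3.30), and against regions only in KO talazoparib, at 11.4%, it was 0.853 points with an interval that included 0 (−0.0645 to 1.75).

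**Figure D2:**
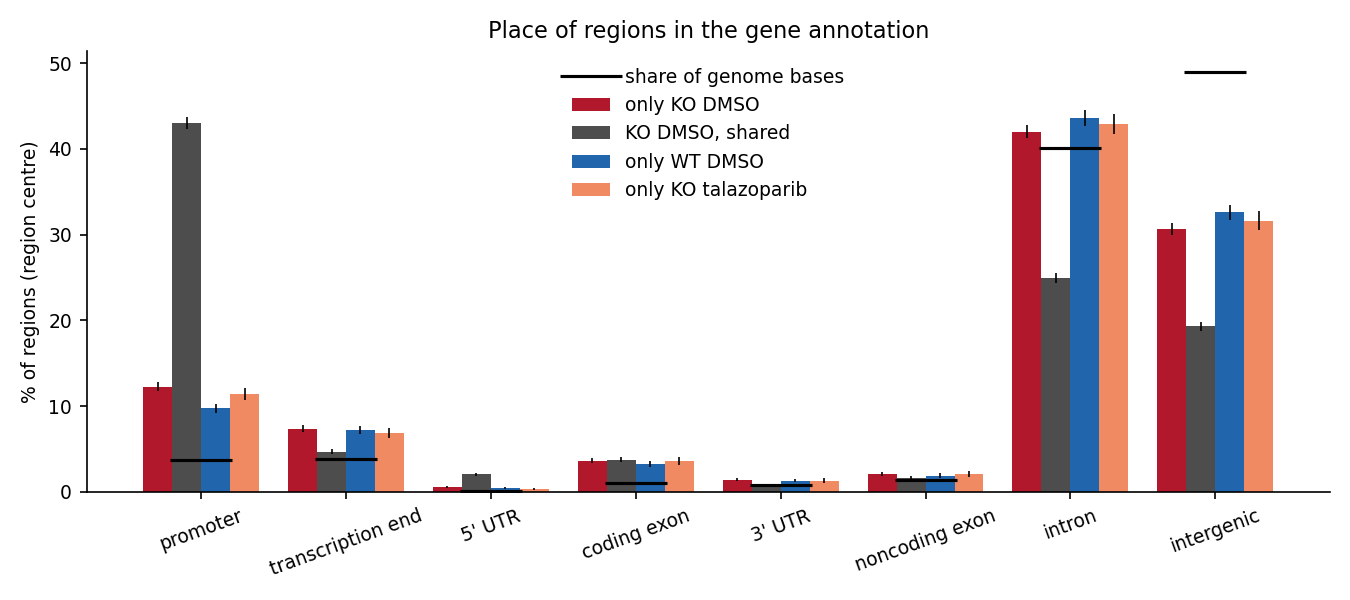
Percentage of regions whose centre falls in each annotation class, for the regions only in KO DMSO, the KO DMSO regions shared with another list, and the regions only in WT DMSO or only in KO talazoparib; whiskers are Wilson 95% intervals and black lines the share of genome bases. Promoters hold 12.3% of the regions only in KO DMSO and 43.0% of the shared ones, and introns 42.0% and 24.9%.

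Within the regions only in KO DMSO the promoter share was higher at higher density. It went from 8.53% in the lowest of these 4 bins through 10.9% and 19.2% to 36.3% in the highest. In the same bins 12.8%, 19.09%, 32.9% and 68.2% of shared peaks were in promoters. The differences were −4.30 (−5.98 to −2.74), −8.17 (−9.71 to −6.65), −13.7 (−15.6 to −11.7) and −31.9 percentage points (−35.8 to −27.8). The highest bin is wide, and densities within it were not matched. A density of at least 4 was found in 241 of its 590 regions only in KO DMSO and 5624 of its 8165 shared peaks.

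Of the 1837 promoter regions, 76.8% had a protein-coding gene's start as the nearest, and 68.4% had their centre upstream of it. Over all 14978 regions the median distance to a start was 5609 bp, against 531.5 bp for shared regions, 6178 bp for regions only in WT DMSO and 6009 bp for those only in KO talazoparib. Within the bodies of genes the regions were spread fairly evenly. Of the 6470 that lay inside exactly 1 gene and outside promoters and ends, 25.3% were in the first 20% of the gene and 17.4% to 19.7% in each later stretch of that size, while shared regions had 39.8% in the first 20% and regions only in WT DMSO 23.1%.

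CpG dinucleotides, the sites of DNA methylation in mammals and the place where TDG meets oxidised methylcytosine, were more common in these regions than in the genome and less common than in the shared ones. The median was 1.57 CpG per 100 bp (95% interval 1.53 to 1.60), against 3.19 for shared regions, 1.40 for regions only in WT DMSO, 1.59 for regions only in KO talazoparib and 0.6 in 500 bp windows of the genome. GC content had a median of 50.2% (50.2 to 50.4), against 53.8%, 49.8%, 50.2% and 41.8% in the same order. The ratio of observed to expected CpG was 0.252, beside 0.457 in shared regions. It was 0.231 in regions only in WT DMSO and 0.252 in those only in KO talazoparib. The counterpart of lost CpG, TpG with CpA, stood at 15.6 per 100 bp against 14.1 in shared regions. In regions only in WT DMSO it was 15.9, and in those only in KO talazoparib 15.6. Regions with the composition of a CpG island, at least 50% GC and an observed to expected ratio of at least 0.6, numbered 1141 or 7.62% (7.20 to 8.05), against 36.2% of shared regions, 4.33% of regions only in WT DMSO and 6.29% of regions only in KO talazoparib. Even in promoters, 30.9% of the regions only in KO DMSO were of this kind, against 65.0% of shared promoter regions. For promoter regions only in WT DMSO it was 18.9%, and for those only in KO talazoparib 26.5%. At the far end, 80 regions held no CpG at all.

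**Figure D3:**
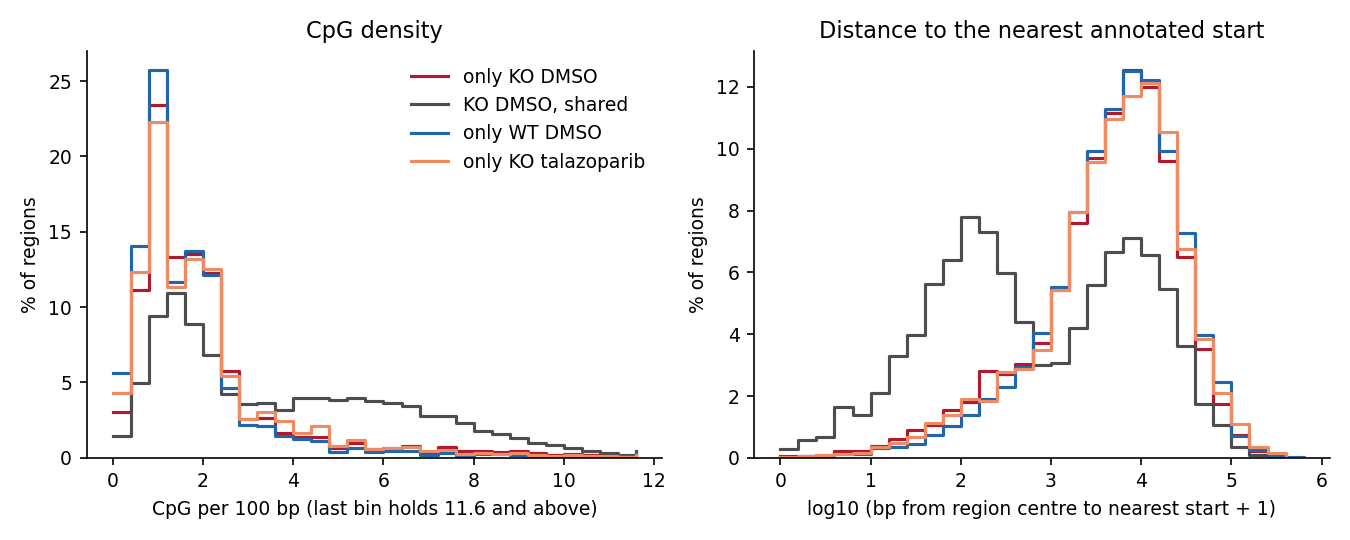
Distribution of CpG density (left, CpG per 100 bp) and of the distance from the region centre to the nearest annotated start (right, log10 of bp + 1), as percentages of each set of regions. The set only in KO DMSO (red) runs with the other single-list sets, with medians of 1.57 CpG per 100 bp and 5609 bp, while shared KO DMSO regions (grey) have a CpG-rich shoulder and a second rise close to starts, with medians of 3.19 and 531.5 bp.

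Interspersed and simple repeats, soft-masked in the assembly, took up a median of 12.8% of each region, against 11.1% in shared regions, 14.8% in regions only in WT DMSO, 16.1% in regions only in KO talazoparib and 23.4% of genome windows. More than 50% of the bases were repeat in 10.4% of the regions, against 4.02% of shared ones, 17.2% of regions only in WT DMSO and 18.5% of regions only in KO talazoparib.

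Short sequence motifs were counted on both strands of the central 300 bases. The GC box GGGCGG, bound by Sp and Klf factors, was present in 14.2% of the regions only in KO DMSO and 41.2% of shared regions. It was present in 10.9% of regions only in WT DMSO, 14.9% of regions only in KO talazoparib and 22.9% of all merged regions. Within promoters it was present in 33.4% of the regions only in KO DMSO (31.3 to 35.6) and in 62.5% of shared ones (61.4 to 63.5). Promoter regions only in WT DMSO held it in 28.9% (26.2 to 31.7). The ETS site CCGGAAG was present in 3.28% against 8.94% of shared regions, the CTCF core AGGGGGCG in 2.09% against 5.98%, the NRF1 core GCGCATGCG in 0.300% against 1.67%, and the pattern of 4 runs of at least 3 G with 1 to 7 bases between them, which can fold into a G-quadruplex, in 9.79% against 20.1%. All of these except the last hold a CpG in their letters, and the GC box and the CTCF core can overlap. Regions only in WT DMSO held the ETS site in 2.48%, the CTCF core in 1.64%, the NRF1 core in 0.231% and the G-run pattern in 8.02%. For regions only in KO talazoparib the shares were 3.27%, 2.17%, 0.336% and 11.6%, so low levels were common to these single-list sets. Motifs without a CpG were mostly near or above the level of shared regions: CCAAT in 31.1% against 31.5% (difference −0.402 points, −1.38 to 0.583), the octamer ATGCAAAT of Pou5f1 in 1.87% against 1.88%, the Esrrb site TCAAGGTCA in 1.38% against 1.14%, GAGAGAGA in 4.35% against 3.63%, AAAAAAAA in 7.45% against 5.48% and CACACACA in 7.03% against 5.45%. All 3 of these simple repeats were less frequent than in both other single-list sets searched. Regions only in WT DMSO held CACACACA in 13.7% (difference −6.69 points, −7.47 to −5.93) and regions only in KO talazoparib in 10.2% (−3.22, −4.05 to −2.42). For GAGAGAGA the shares were 5.43% (−1.08, −1.63 to −0.552) and 5.33% (−0.981, −1.61 to −0.379). For AAAAAAAA they were 8.18% (−0.732, −1.40 to −0.0706) and 8.93% (−1.48, −2.28 to −0.708). The E-box CACGTG (6.34% against 7.91%) and the cAMP response element TGACGTCA (0.467% against 1.39%), which hold a CpG, and the YY1 site GCCATNTTG (1.65% against 2.53%), which does not, were less frequent than in shared regions. Over all merged regions the shares were 5.03% for the ETS site, 3.36% for the CTCF core, 0.762% for the NRF1 core, 13.2% for the G-run pattern, 29.9% for CCAAT, 1.77% for the octamer, 1.19% for the Esrrb site, 5.01% for GAGAGAGA, 6.93% for AAAAAAAA, 10.6% for CACACACA, 6.81% for the E-box, 0.739% for the cAMP response element and 1.88% for the YY1 site.

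Across the genome the regions followed GC-rich and gene-rich DNA. There were 12.5 per Mb on chromosome 11, the most, and 3.57 per Mb on chromosome 14, the fewest. Over the 19 chromosomes, which share one set of libraries, regions per Mb correlated with GC content (Pearson r 0.83, Spearman rho 0.79), with protein-coding genes per Mb (0.78 and 0.78) and with regions only in WT DMSO per Mb (0.98 and 0.96), given as descriptions. The share of a chromosome's KO DMSO regions found in no other list ran from 40.5% on chromosome 7 to 45.9% on chromosome 11 on 18 chromosomes. Chromosome 16 stood above them at 49.1% (46.4 to 51.8), beside 43% over all.

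**Figure D4:**
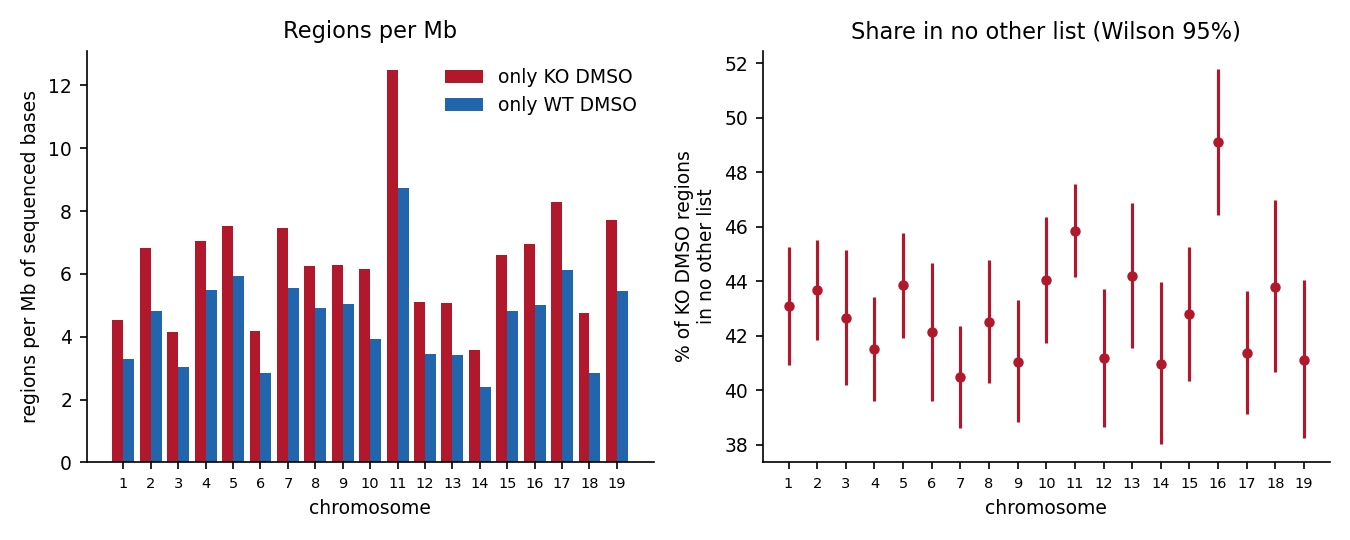
Regions per Mb of sequenced bases on chromosomes 1 to 19 (left) for the sets only in KO DMSO (red) and only in WT DMSO (blue), and the percentage of each chromosome's KO DMSO regions found in no other list, with Wilson 95% intervals (right; the axis does not start at 0). Chromosome 11 has 12.5 regions only in KO DMSO per Mb, and chromosome 16 the highest share, 49.1%.

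In windows of 1 Mb the regions were unevenly placed, with a median of 3, a maximum of 54, and none in 26.7% of 2473 windows. The fullest window, chr7:45000001-46000000, holds 69 protein-coding genes from Irf3, a transcription factor of interferon responses, to the transporter gene Abcc6; it had 54 regions only in KO DMSO and 28 only in WT DMSO. Next came chr10:80000001-81000000, from Abca7 to Gng7, with 52 and 24, and chr11:117000001-118000000, from Sec14l1 to Pgs1, with 47 and 30. The windows chr2:32000001-33000000, from Nup214 to Garnl3, and chr11:119000001-120000000, from the polycomb gene Cbx2 to Baiap2, had 45 and 43, against 17 and 23 only in WT DMSO.

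At the targeted gene, Tdg on chromosome 10, the start lay in a region shared by WT DMSO and KO DMSO, and 1 region only in KO DMSO, chr10:82652540-82653171, lay past its 3' end with 6.15 normalized tags, an IP density of 2.58, 3 input tags and a fold of 5.09. Peaks at Tdg do not check the genotype, since the labels do not say which bases were removed.

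The tallest regions lay mostly in DNA with several copies in the genome. The 12 with the highest IP density ran from 8.10 to 189 times the genome mean, and 11 of them also had an input density above that mean. For 10 of the 12, the sequence matched several places in the assembled chromosomes at 90% identity or more over at least 100 bp. The regions near Gm25352, chr3:5860272-5860897, and in an intron of Jarid2, chr13:44869518-44870274, had 277.1 and 300.3 normalized tags, with 20 and 19 matches. Their input densities were 12.5 and 23.1 times the genome mean, so their tags cannot be assigned to these genes. Several of the 12 held 10 or more copies of TTAGGG, the unit of vertebrate telomeres, or its complement, among them those near AC126254.3 and A630089N07Rik and those in introns near Pde7b and Tacr2. At least 3 copies in tandem were present in 9 of 14978 regions only in KO DMSO and 12 of 19880 shared ones. Among regions only in WT DMSO it was 3 of 10827, and among those only in KO talazoparib 16 of 7133. Only the regions near Efna3, an ephrin gene, and Tacr2, a tachykinin receptor gene, matched a single place, with 21.1 and 15.3 normalized tags, 11.5 and 9.5 input tags and folds of 4.56 and 4.01. Where reads that match several places were put, and so what part this has in these heights, was not tested.

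Genes were counted as marked when a region lay in the gene or within 5 kb of it. Such a region can lie outside the gene and nearest to the start of another. Of 20807 protein-coding genes, 7453 (35.8%) had a region only in KO DMSO, and 5787 (27.8%) one only in WT DMSO; a KO DMSO region shared with another list was found at 60.8%. Marked genes were longer, with a median of 29.0 kb against 12.9 kb for the others, and the share marked went from 19.6% in the shortest 20% of genes to 54.2% in the longest 20%. For 710 genes (3.41%), the regions only in KO DMSO were the only peaks of any list. Most marked genes had few: 4600 had 1, 1685 had 2, and 153 had 6 or more. Counted as pairs of a region and a gene there were 12778 only in KO DMSO and 8899 only in WT DMSO, a ratio of 1.44, against which the lists below can be read.

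**Figure D5:**
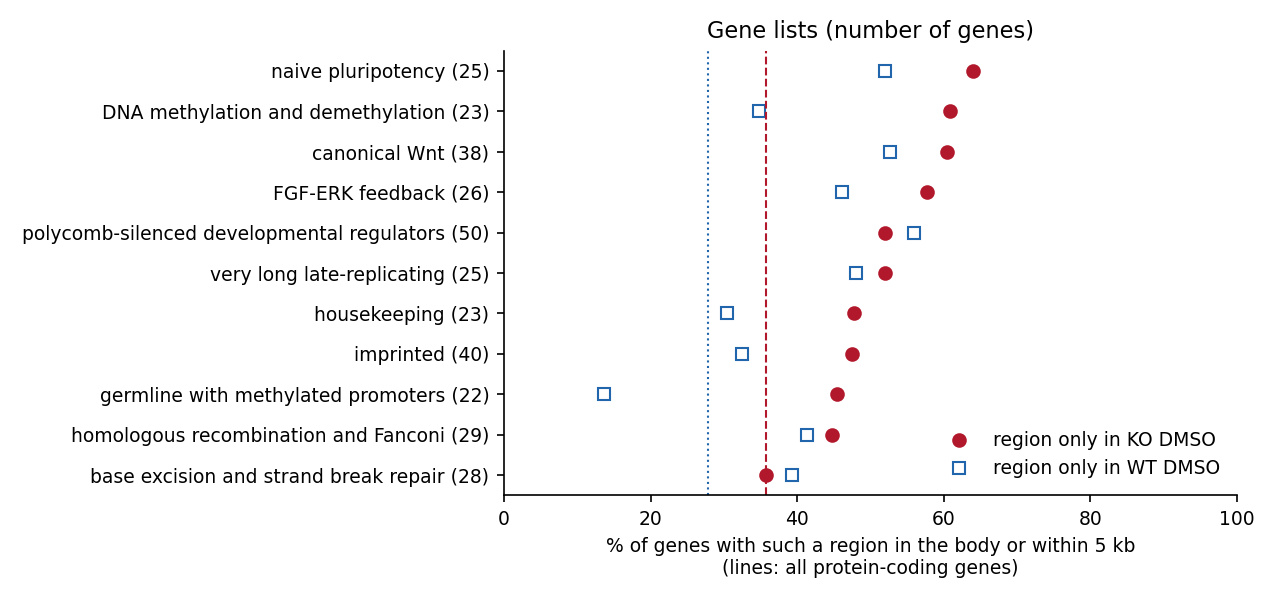
Percentage of the genes of each list with a region only in KO DMSO (filled circles) or only in WT DMSO (open squares) in the gene or within 5 kb; the dashed and dotted lines are the same percentages over all protein-coding genes, 35.8 and 27.8. The circles run from 35.7% for base excision and strand break repair to 64% for naive pluripotency.

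Genes of the naive pluripotent state, which 2i medium maintains, were marked in 16 of 25 cases (64%), beside 35.8% of all protein-coding genes. They had 36 regions, beside 13 genes and 21 regions only in WT DMSO. Esrrb, a nuclear receptor of the naive network, had 6 regions along 160.5 kb and also 10 KO DMSO regions shared with another list. Tfcp2l1, another factor of that network, had 6, in introns, near a transcription end and in its last exon, with 3.40 to 7.09 normalized tags. Prdm14, which restrains DNA methylation and FGF signalling in naive cells, had 3, with 4.92, 4.41 and 4.19 normalized tags and input tags of 3, 2 and 2. No KO DMSO region at Prdm14 was shared with another list, though 1 region of the other lists lay there. Klf2 and Nanog had 2 each, and 1 of those at Nanog covered its start (chr6:122707157-122708120) with 13 normalized tags, 6 input tags and a density of 3.57.

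The enzymes and readers of DNA methylation were marked in 14 of 23 cases (60.9%), beside 35.8% of all protein-coding genes. They had 29 regions beside 13 only in WT DMSO, a ratio of 2.23. Tet1, which oxidises 5-methylcytosine ahead of TDG, had 5, all in introns, with 3.69 to 14 normalized tags. Tet2 had 4. Zbtb4, a reader of methylated CpG, also had 5, of which the one at its start had 8.03 normalized tags. Dnmt1, the maintenance methyltransferase, had 3, in introns, with 3.76, 5.06 and 4.55 normalized tags, and its cofactor Uhrf1 had 2. The de novo methyltransferase gene Dnmt3a had 2, of which 1 lay at its start with 9.47 normalized tags and 2.5 input tags.

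Base excision and strand break repair, the pathway TDG feeds, stood at the level of all genes, with 10 of 28 marked (35.7%, beside 35.8%) by 12 regions, against 11 genes and 13 regions only in WT DMSO. Mutyh, the glycosylase for adenine opposite oxidised guanine, had 2, both outside the gene and nearest to the starts of Toe1 and Gm12996. Aptx, which clears aborted ligation products, the glycosylases Mpg and Neil1, and Parp1, the main sensor of single-strand breaks and a target of talazoparib, had 1 each. Those of Aptx and Mpg lay outside these genes, the first nearest to the start of Gm12391 and the second 532 bp from that of Rhbdf1. The region in the first part of Parp1, chr1:180571956-180572456, had 6.43 normalized tags, 3 input tags and a fold of 5.33. Polb, the gap-filling polymerase of the pathway, had its region at the start, with 15.2 normalized tags, 6 input tags and a density of 3.84.

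Genes of homologous recombination and the Fanconi pathway were marked in 13 of 29 cases, beside 35.8% of all protein-coding genes, by 23 regions; 12 genes were marked by 15 regions found only in WT DMSO, and the ratio of 1.53 was near that over all genes. Fancc had 6 regions and Rad51b 3. Both genes are long, at 212.2 and 517.4 kb, and their regions had 3.33 to 7.52 normalized tags. Blm, Brca1 and Fancd2 had 2 each.

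Among signalling lists, FGF and ERK feedback genes were marked in 15 of 26 cases (57.7%) and canonical Wnt genes in 23 of 38 (60.5%). Over all protein-coding genes it was 35.8%. Regions only in WT DMSO marked 12 and 20 of these genes, beside 27.8% over all. Fgfr2 had 36 regions, but its annotated span of 2961 kb takes in other genes; its start region, chr7:130265790-130266805, had 12.4 normalized tags and lay 97 bp from a peak of another list. Etv5, an ERK-induced factor, Grb2, the adaptor, and Spred2, a feedback inhibitor, had 4 each. In the Wnt list, Tcf7l1, the repressor that the GSK3 inhibitor of 2i medium relieves, had 4. Axin2, a negative feedback target, had 3 and Wnt1 had 3, each with 1 at the start, of 10.3 and 6.51 normalized tags.

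Developmental regulators held silent by polycomb in embryonic stem cells were marked in 26 of 50 cases (52%), beside 35.8% of all protein-coding genes. They had 38 regions only in KO DMSO, and 28 genes had as many regions only in WT DMSO. Gata2, Lhx1, Pax7 and Tfap2a had 3 each. At 3 of the 50, Gata6, Lhx5 and Barx1, regions only in KO DMSO were the only peaks of any list, beside 3.41% of all protein-coding genes.

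Germline genes whose promoters are methylated in somatic cells were marked in 10 of 22 cases (45.5%), beside 35.8% of all protein-coding genes. They showed the largest ratio, with 11 regions only in KO DMSO against 4 only in WT DMSO, the latter at 3 genes. The numbers are small. At 4 of the 22, Dazl, Sycp2, Sycp3 and Piwil2, a region only in KO DMSO was the sole peak of any list, against 3.41% of all protein-coding genes. Dazl encodes an RNA-binding protein of germ cells, and its region, chr17:50292743-50294084, covered the start with 15.1 normalized tags, 8.5 input tags, a fold of 4.42 and 8.43 CpG per 100 bp; the nearest peak of another list was 48137 bp away. Sycp2, for a protein of the synaptonemal complex, had its region at the start with 7.52 normalized tags, 3 input tags and a fold of 6.23. The Piwil2 region lay in the gene with 3.4 normalized tags and 1 input tag. Piwil1, another gene of the piRNA pathway, had 2 in introns, of 10.9 and 4.05.

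Imprinted genes were marked in 19 of 40 cases by 36 regions, beside 13 genes and 18 regions only in WT DMSO. This list holds both protein-coding and noncoding genes. Over all 51229 annotated genes the share marked was 21.5%, beside 16.4% with a region only in WT DMSO. Over protein-coding genes alone these shares were 35.8% and 27.8%. Trappc9, which contains the imprinted Peg13, had 6 and Usp29 had 5. Phlda2, a growth-restraining gene of the placenta, had one at its start with 14.2 normalized tags, and Magel2, at its start, had the only peak of any list there with 5.93; of all annotated genes, 3.9% had peaks only in KO DMSO. Housekeeping genes were marked in 11 of 23 cases (47.8%), among them Pkm with 3 and Eno1 with 2. That stood beside 35.8% of all protein-coding genes, and 7 housekeeping genes were marked by regions only in WT DMSO. Very long, late-replicating genes were marked in 13 of 25 cases (52%), led by Cdh13 with 6, beside 35.8% of all protein-coding genes. Among the 4162 longest protein-coding genes the share was 54.2%, at a median length of 110.4 kb against 1346.2 kb for the list. Regions only in WT DMSO marked 12 of the 25, beside 44.5% of those 4162 genes. The list held 0.0826 regions only in KO DMSO per 100 kb, where all protein-coding genes had 1.04. Among cell type markers, 4 of 7 genes of naive embryonic stem cells were marked. Extraembryonic endoderm had 6 of 12 and fibroblasts 4 of 9, where all protein-coding genes had 35.8%. Regions only in WT DMSO marked 4, 8 and 3 of the same genes, beside 27.8% of all protein-coding genes. Break positions do not show which cells were present.

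The 15 protein-coding loci with the most regions had spans of 114.9 kb or more. The readthrough locus Gm20388, of 4435 kb, took 104, and Gse1, which lies inside it, 23. Dst, a cytoskeletal linker, and Etl4 had 14 each, Zmynd8, a chromatin reader, 13, Msi2, an RNA-binding protein of stem cells, and Trak1, an adaptor for mitochondrial transport, 12 each, and Ank3, Camta1 and Rptor, the mTORC1 scaffold, 11 each. The spans Gm37013, Gm37388 and Gm42416 on chromosome 18 overlap one another and had 11 each, and Abr had 10. These loci were picked for their regions only in KO DMSO, so an excess over regions only in WT DMSO is favoured by the choice. Trak1 had 12 beside 3 only in WT DMSO, Dst 14 and 3, Ank3 11 and 3, and Rptor 11 and 3. Closer pairs were Msi2 with 12 and 10, Camta1 with 11 and 10, Zmynd8 with 13 and 9, and Abr with 10 and 6. The ratio over all protein-coding genes was 1.44. Per length, counting genes of at least 20 kb with at least 3 regions, the densest was Tnk2, a non-receptor tyrosine kinase, with 7 regions or 14.1 per 100 kb and no KO DMSO region shared with another list. Cd9, a tetraspanin, had 6 (13.5 per 100 kb), and Pard6b, a cell polarity gene, Zbtb2, Acadm, an enzyme of fatty acid oxidation, and Oaz2, a regulator of polyamine synthesis, had 4 each, at 12.4 to 13.2 per 100 kb.

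In all, 35 regions only in KO DMSO with their centre in a promoter window had a listed gene's start as the nearest, with 3.25 to 21.6 normalized tags. The highest was at Wnt7b, a Wnt ligand (chr15:85580879-85583487), 2608 bp long, with 21.6 normalized tags, 12 input tags, a density of 2.19 and 7.09 CpG per 100 bp. Next were Polb, Rps6, a ribosomal protein gene, with 15.1, and Dazl. Neil1, Etv4 and Sfrp2, the last a secreted Wnt inhibitor, had 12.4, 12.2 and 8.17, and at Sfrp2 a peak of another list lay 231 bp away. The lowest, at Axin1, a scaffold of the beta-catenin destruction complex, had 3.25 normalized tags on 1 input tag. Of the genes named, Sycp2, Sycp3, Lhx5, Barx1, Peg13, Phlda2, Magel2, Rps6, Etv4, Sfrp2 and Axin1 were picked after their values had been seen.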

How the data were processed

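The 16 libraries, grouped by the labels' genotype, treatment and kind, were deposited as 4 peak tables, 1 per condition. The build mm10 and the tools HOMER 4.11, Picard 2.9.2, R 3.6 and Bowtie2 2.3.4.2 are named in the submitters' processing notes, with no role or setting. Per the file headers, the columns are those of HOMER findPeaks. As deposited, normalized tags are an IP signal per 10000000 tags, and input tags a signal in steps of 0.5. The authors' fold is a ratio of scaled IP to input tags, at least 4 in every list, and the deposited score is HOMER's peak score, used here to rank the peaks of a list. Columns of other units hold the deposited peak length in bp and IP tags brought to the scale of the input library by the authors.

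Peaks of chromosomes 1 to 19 were merged where they shared at least 1 bp, and regions with KO DMSO peaks only were kept. Library totals were worked out from the step of the tag columns, and density was set against its mean over 2647.5 Mb, the sequenced part of the autosomes and of X and Y. Region centres were annotated with GENCODE mouse release 21 on GRCm38.p6, the assembly behind mm10, from which sequence and soft-masked repeats were read (Python 3.11.15, pysam 0.24.0, pandas 2.3.3, scipy 1.17.1, blastn 2.17.0). Region coordinates are those of the tables, which do not say if the first base of a chromosome is 0 or 1. Shares have Wilson and differences Newcombe 95% intervals; medians have 95% intervals from order statistics. No test across conditions was run, since the tables hold no values per library. The calculations were checked on simulated data.

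Genes named were those of each list with the most regions (up to 6), the 15 protein-coding genes with the most regions, the genes nearest the 12 regions with the most tags per bp, the 6 densest genes and the ends of the 5 fullest windows. The members, gene lists and this rule were chosen with earlier results of these data known. A listed gene and a sequence that the rule would name are not reported here. Alternatives changed the merging distance, the overlap, the fold, input and density minimums, the number of peaks per list, the promoter definition, the repeats and the chromosomes.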

Additional observations from a re-analysis of the deposited data

Results flagged for a closer look

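Chromosome X, which the rule leaves out, also carried regions found only in KO DMSO: 94, or 0.575 per Mb of sequenced bases, beside 6.25 per Mb on chromosomes 1 to 19. Peaks of the KO DMSO list were few there in all, 423 on chromosome X beside 35020 on chromosomes 1 to 19. Chromosome Y had 1 region only in KO DMSO. A count of 0 would allow up to 0.0184 per Mb on chromosome X. These chromosomes enter no comparison above.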

How the results depend on the processing

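No paired analysis was possible because the deposited lists pool the libraries of a condition, and for the same reason no replicate could be left out in turn. The number of regions only in KO DMSO stayed within 1.5 times 14978 under 5 of 9 alternatives, and fell to 9592 with a fold of at least 6 in KO DMSO, 9825 with an IP density of at least 2, 3742 with at least 3 input tags and 4305 with equal numbers of best-scoring peaks; each of these keeps fewer KO DMSO peaks by construction. The other 3 results are set against their counting intervals. In that order the promoter share, 12.3% as reported, was 10.8%, 14.4%, 19.9% and 20.8%. It was 20.1% with a fold of at least 6 in all lists, 11.7% with peaks up to 1000 bp apart merged, 17.3% when any base in the window counted and 19.2% with a window of 1 kb on either side. Median GC content, 50.2%, was 50% with a fold of at least 6 in KO DMSO, 50.6% with the density minimum, 51.5% both with the input minimum and with equal numbers, 51% with a fold of at least 6 in all lists, 50.15% and 50.03% with peaks up to 500 or 1000 bp apart merged, and 50.8% outside soft-masked repeats. The share with another list's peak within 5 kb, 50.3%, was 47.4%, 52.7%, 56.2% and 43.2% in the order first given. It fell to 26.9% with a fold of at least 6 in all lists, was 45.7% and 39.2% after merging over 500 or 1000 bp, and 54.4% when sharing needed 50% of the shorter peak. Depth limits what single regions show, since 75.02% of them rest on fewer than 3 input tags.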
